A study of Arabidopsis thaliana with 2 samples.

Results

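The 33 genes described here are the plastid-encoded photosynthesis genes of Arabidopsis thaliana. They are the genes of the plastid chromosome whose symbols start with psa (photosystem I), psb (photosystem II), pet (cytochrome b6f complex) or atp (plastid ATP synthase), together with rbcL for the large subunit of Rubisco. They were chosen by symbol and chromosome, and the mitochondrial atp genes were not included. They make up 33 of the 69 plastid-encoded genes, and 33 of the 13356 genes of any genome, that the array annotation pairs with a probe set of their own. Each of the 33 had exactly 1 such probe set, and all 33 lay above the intensity floor on both arrays.

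Chloroplasts keep a small chromosome of their own. It encodes the reaction centre proteins and other core subunits of the thylakoid complexes, while the nucleus encodes most peripheral subunits, the light-harvesting antennae and the small subunit of Rubisco. Plastid genes are read by a bacterial-type polymerase, whose core subunits are plastid-encoded, and by phage-type polymerases encoded in the nucleus. Many stand in operon-like transcription units, whose long primary transcripts are cut into smaller RNAs that nuclear-encoded proteins stabilise, so that genes of a shared unit can end with different transcript levels.

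The study asked which genes hypoxia induces in leaf mesophyll cells. Protoplasts, cells freed from their walls by digestion, were made from leaves of 36 plants, cut 2 h after the lights came on, pooled, and divided into both samples. For hypoxia, cells were submerged 25 mm deep for 6 h, in a 15 ml tube that held 2 ml of mannitol buffer. For the control, cells lay 0.6 mm deep for 6 h, in a Petri dish that held 10 ml of that buffer. Per the labels, both samples held equal numbers of cells and stood in light of 80 microeinstein, so hypoxic cells were at 5 times the density of control cells. The sources used here do not give genotype, ecotype or plant age. Oxygen, depth, vessel and cell density differ together between the groups and cannot be told apart. The light that reached the cells at each depth was not compared here. There was 1 array per group, so no difference below has a replicate check or a test, and the number of arrays limits the precision.

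Intensities are probe set values on a linear scale, as deposited. Ratios are log2 ratios of hypoxia over control after both arrays were scaled to the same median, and values under a floor of 165.7, the 40th percentile of the scaled values, were set to it. The median intensity was 334 on the hypoxia array and 345 on the control array. Where a gene had 2 probe sets that both passed the floor, as 74 genes did, their log2 ratios had an SD of 0.34. This probe set SD is that of a single ratio, and it measures differences between probes but not between cultures. A difference between 2 probe sets, or a span over several, varies more than a single ratio. Below, the SD is therefore a unit of size and not a limit of probe noise. The 18 hybridisation control probe sets, spiked-in transcripts added for quality control, all had ratios above 0. Their median was 0.50, with a range of 0.06 to 0.80. Of 8 listed nuclear reference genes, 4 were measured, with a median of -0.41 and a range of -0.91 to -0.03. Of the mesophyll markers, RCA had 57111 in hypoxia and 35119 in control, and LHCB4.2 had 12150 in hypoxia and 6120 in control. The other listed mesophyll markers, RBCS1A, RBCS1B, RBCS2B, RBCS3B, LHCB1.1 and LHCB5, had no single-gene probe set. Among markers of other cell types, 2 of 4 guard cell genes and 1 of 4 phloem genes were measured, and the epidermis and root lists had no single-gene probe set. The guard cell gene FAMA had 327.8 in hypoxia and 294.8 in control. GC1, another guard cell gene, had 175.4 in hypoxia and 32.9 in control, where it lay under the floor, so its log2 ratio was at least 0.11. The phloem gene SWEET11 had 1020 in hypoxia and 212 in control. The part of these shifts in the plastid ratios was not tested. In pooled cells, more plastid RNA per cell, more plastids per cell and more cells that hold plastids cannot be told apart. Scaled ratios are relative to the other RNA on each array. More plastid RNA and less of the other RNA therefore cannot be told apart either.

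Most of the plastid photosynthesis genes were moderately higher in hypoxia. Their median log2 ratio was 0.61, or 1.52-fold, and 31 of 33 ratios, 93.9%, were above 0, against 47.1% of the 7976 measured genes. At least 2-fold higher were 9 of 33, or 27.3%, against 13.0% of the measured genes. None of the 33 was at least 2-fold lower, against 14.5% of the measured genes. The median over all measured genes was -0.07. The 9 genes past 2-fold were petG, psbT, atpI, psbC, psbI, psbK, rbcL, psbN and atpF. The other 24 lay within 2-fold, and the lowest were psaJ and psbA, the only ratios below 0. Ratios had an SD of 0.50 across the 33 genes, against 0.34 between probe sets of the same gene. The 0.34 comes from other genes, since each of the 33 had 1 probe set, so their own probe noise was not measured.

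**Figure D1:**
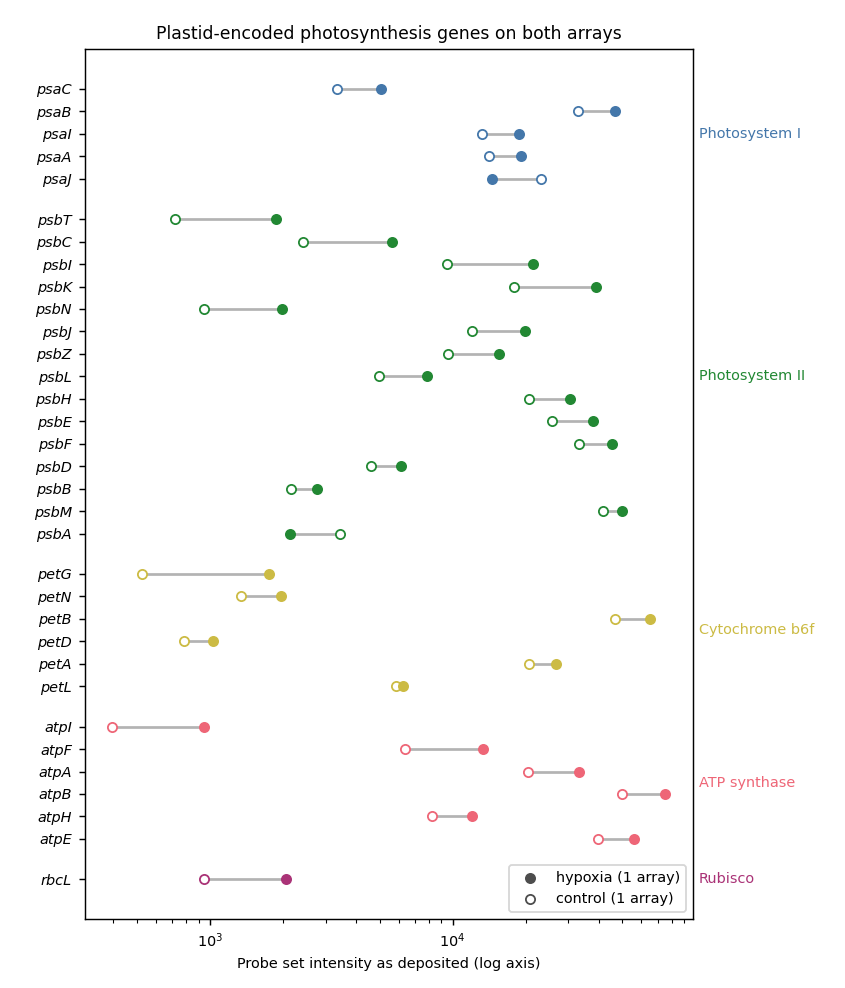
Deposited probe set intensity (log axis) of the 33 genes on the hypoxia array (filled) and the control array (open), grouped by complex and sorted by ratio within it. The filled point lies to the right of the open point for 31 genes and to the left for psaJ and psbA.

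Photosystem I, which drives electrons from plastocyanin to ferredoxin, had 4 of its 5 plastid genes between 0.48 and 0.64. The median over all 5 was 0.55, and 0 of 5 were past 2-fold in either direction. The genes of its reaction centre heterodimer stood close together. psaA had an intensity of 19061 in hypoxia and 14112 in control, a ratio of 0.48. psaB had 46698 in hypoxia and 32816 in control, a ratio of 0.56. psaC, which encodes the subunit that carries the terminal iron-sulphur clusters, had 5048 in hypoxia and 3339 in control, a ratio of 0.64. These 3 ratios lay within 0.16 of each other, less than the probe set SD. They spanned 0.47 with quantile normalization and 0.40 with loess, spans that 3 probe sets can reach by probe noise alone. psaI encodes a small membrane subunit and had 18833 in hypoxia and 13264 in control, a ratio of 0.55. psaJ, which encodes a small membrane subunit next to PsaF, was the exception. Its probe set, 244967_at, had 14476 in hypoxia and 23231 in control, a ratio of -0.64, or 1.55-fold lower. It lay 1.12 log2 units below the next photosystem I gene, psaA, which is more than 3 times the probe set SD of a single ratio.

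Photosystem II, which splits water and reduces plastoquinone, holds 15 of the genes, with a median of 0.70. Higher by at least 2-fold were 5 of 15, and lower by as much were 0. Its 4 large chlorophyll-binding proteins did not move together. psbA encodes D1, the reaction centre protein that light damages and that is replaced most often. Its probe set, 245047_at, had 2143 in hypoxia and 3420 in control, a ratio of -0.63, or 1.55-fold lower. psbD, for the partner protein D2, had 6142 in hypoxia and 4615 in control, a ratio of 0.46. The inner antenna genes differed from each other: psbC (CP43) had 5635 in hypoxia and 2424 in control, a ratio of 1.26, while psbB (CP47) had 2750 in hypoxia and 2152 in control, a ratio of 0.40. The 4 ratios therefore spanned 1.89 log2 units, from psbA at the low end to psbC at the high end.

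The other 11 photosystem II genes, for low-mass subunits and the assembly factor PsbN, all had ratios above 0, with a median of 0.73 and a range of 0.31 to 1.43. psbT, for a small subunit at the dimer interface, was the highest of them, with 1872 in hypoxia and 720 in control. psbI and psbK, which encode small subunits beside the reaction centre and the inner antenna, had 21415 and 39108 in hypoxia, against 9473 and 17868 in control, with ratios of 1.22 and 1.18. psbN had 1988 in hypoxia and 949 in control, a ratio of 1.11. These were the 4 of 11 past 2-fold. The rest formed a tighter band. psbJ, psbZ and psbL had ratios of 0.77, 0.73 and 0.70, and psbH, whose product is phosphorylated in the light, had 0.61. psbE and psbF, which encode both chains of the haem-binding cytochrome of the reaction centre, had 37826 and 45502 in hypoxia and 25640 and 33330 in control, with ratios of 0.61 and 0.50. psbM, for another subunit of the dimer interface, had the smallest ratio of the 11, 0.31, with 49845 in hypoxia and 41500 in control, and its ratio turned to -0.15 with quantile normalization.

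The cytochrome b6f complex, which passes electrons from plastoquinone to plastocyanin and pumps protons, had a median of 0.49 over 6 genes, with 1 past 2-fold. The genes of its large subunits had similar ratios under the main scaling. petB (cytochrome b6) had 65138 in hypoxia and 46870 in control, a ratio of 0.52. petD (subunit IV) had 1033 in hypoxia and 780 in control, a ratio of 0.45, and petA (cytochrome f) had 26572 in hypoxia and 20581 in control, a ratio of 0.42. These 3 ratios lay within 1 probe set SD of each other. Under the scalings that depend on intensity they spanned 0.54 with quantile normalization and 0.52 with loess, with petD the highest. A span over 3 probe sets can exceed the SD of a single ratio by probe noise alone, so these spans cannot tell whether the genes diverged. The genes of the small membrane subunits were spread more widely. petG, measured by probe set 244966_at, had the highest ratio of all 33 genes, 1.78 or 3.44-fold, with 1745 in hypoxia and 524 in control. petN had 1968 in hypoxia and 1338 in control, a ratio of 0.60, and petL had 6270 in hypoxia and 5849 in control, a ratio of 0.15.

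The plastid ATP synthase makes ATP from the proton gradient across the thylakoid. Its 6 plastid genes were all higher in hypoxia, with a median of 0.69, and 2 were past 2-fold. In the catalytic head, atpA (alpha) had 33188 in hypoxia and 20527 in control, a ratio of 0.74. atpB (beta) had 75250 in hypoxia and 50031 in control, a ratio of 0.64, and atpE (epsilon, the rotor subunit that restrains ATP hydrolysis) had 55725 in hypoxia and 39798 in control, a ratio of 0.53. The membrane sector had both genes past 2-fold. atpI (subunit a, the proton channel) had 949 in hypoxia and 395 in control, a ratio of 1.31, and this was the dimmest member probe set on either array. atpF (a stator subunit) had 13283 in hypoxia and 6390 in control, a ratio of 1.102. atpH (the ring of c subunits) had 11978 in hypoxia and 8216 in control, a ratio of 0.59, within the range of the catalytic head.

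rbcL, for the large subunit of the carbon-fixing enzyme Rubisco, had 2054 in hypoxia and 941 in control, a ratio of 1.17 or 2.25-fold. It stands alone in its transcription unit, as psbA does, and the 2 genes lay on opposite sides of 0. Their ratios differed by 1.80 log2 units.

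Genes of a shared transcription unit had similar ratios in some units and not in others. The units used follow textbook operons of the plastid chromosome, but their boundaries were set after the probe sets had been seen. Their genes stand next to each other in the RefSeq gene table. Genes of 1 unit can share an RNA and are not replicates. In the psbE-psbF-psbL-psbJ unit the 4 ratios spanned 0.27, in psbK-psbI 0.05, in atpB-atpE 0.10 and in psaA-psaB 0.08, all less than the probe set SD of 0.34. With quantile normalization and loess the psbE unit spanned 0.56 and 0.47, while the other 3 pairs stayed below that SD. A span over 4 probe sets tends to exceed a difference within a pair by probe noise alone. These spans therefore cannot tell whether the psbE genes diverged under those scalings. In the accD-psaI-ycf4-cemA-petA unit the ratios from psaI to petA were 0.55, 0.58, 0.69 and 0.42, while accD, a fatty acid synthesis gene at its start, had 1.34. In the rps2-atpI-atpH-atpF-atpA unit the order was uneven, at 1.18, 1.31, 0.59, 1.102 and 0.74 from the first gene to the last. In the psbB unit, psbB, psbH, petB and petD had 0.40, 0.61, 0.52 and 0.45, and psbT alone had 1.43. psbN, which lies between psbT and psbH on the opposite strand, had 1.11. psbD and psbC differed by 0.80 although their gene models overlap by 53 bases, and psbZ, the last gene of that unit, had 0.73.

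The widest spread was in the petL-petG-psaJ-rpl33-rps18 unit, where the ratios ran 0.15, 1.78, -0.64, 2.05 and 2.00. That unit was joined after the probe sets had been seen. petG and psaJ, the highest and the lowest of all 33 genes under the main scaling and floor, are neighbours there, 2.42 log2 units apart. With the floor at the 60th percentile they were 2.03 apart. The ribosomal protein gene rpl33, next to psaJ on its other side, had 11956 in hypoxia and 2979 in control. psaC sits among genes of the NDH complex, a thylakoid enzyme that returns electrons from ferredoxin to plastoquinone. Its ratio of 0.64 lay within 1 probe set SD of its neighbour ndhD at 0.59, while ndhE on the other side had 1.12. The ribosomal protein gene rps14, which follows psaB in the psaA unit, had 1.56. Over 17 pairs of members that follow each other in a unit, under the main scaling, the median difference was 0.36. Of these pairs, 8 differed by no more than the probe set SD of a single ratio and 6 by more than 2 such SDs. The 6 include petL-petG and petG-psaJ, from the unit joined after the probe sets had been seen. A difference between 2 probe sets varies more than a single ratio, so some pairs can pass these marks by probe noise alone.

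**Figure D2:**
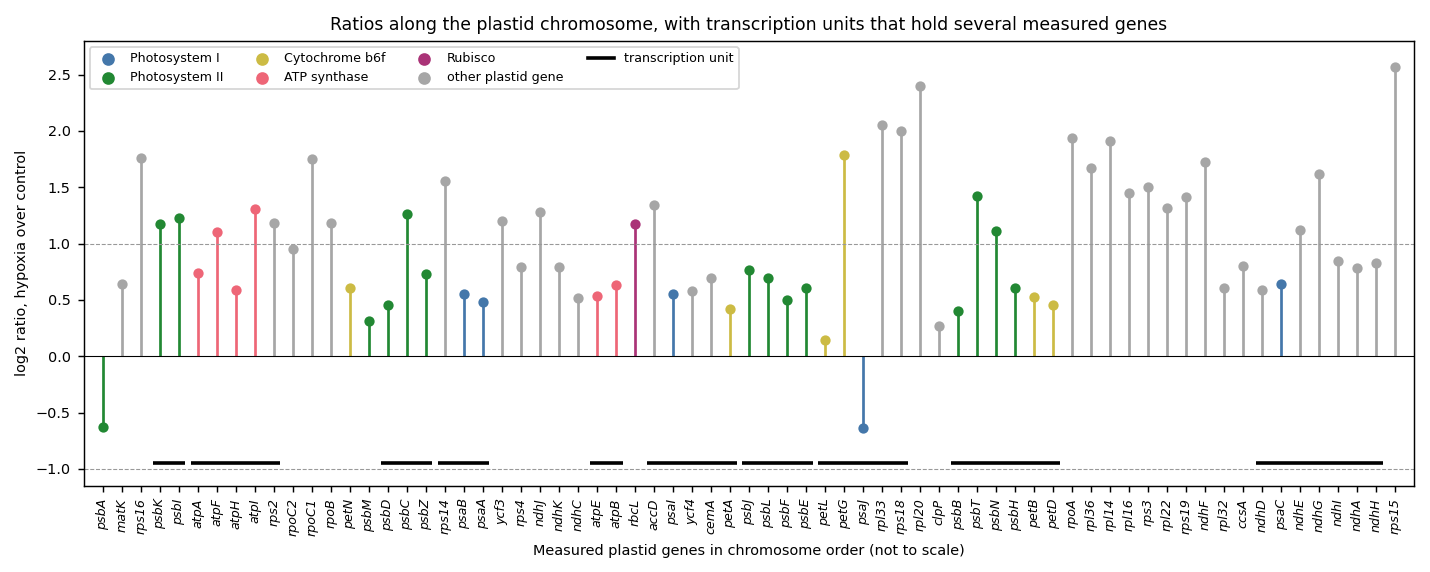
Log2 ratio of hypoxia over control (vertical axis) for the 69 measured plastid genes in chromosome order (horizontal axis, not to scale), coloured by complex, with black bars under genes of a shared transcription unit and dashed lines at 2-fold. psbN lies under the bar of the psbB unit but on the opposite strand, and petG at 1.78 and psaJ at -0.64 stand side by side.

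The photosynthesis genes had a lower median than the plastid genes of gene expression. The other 36 plastid-encoded genes had a median of 1.24, with 22 past 2-fold and 36 above 0, so the photosynthesis median lay 0.63 below theirs. The 7 genes of other functions (matK, ycf3, accD, ycf4, cemA, clpP and ccsA) had a median of 0.69 with 2 past 2-fold, and the 10 NDH complex genes had 0.84 with a range of 0.52 to 1.73 and 4 past 2-fold. The 15 ribosomal protein genes had a median of 1.56 and 13 past 2-fold, and the 4 genes of the plastid RNA polymerase had 1.47 and 3 past 2-fold. These differences have no test, since all values come from the same 2 arrays.

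Probe set intensity moved with this difference. Over the 33 photosynthesis genes, the ratio and the mean log2 intensity had a Pearson r of -0.33 and a Spearman rho of -0.31, and over the 36 other plastid genes the values were -0.56 and -0.61. These correlations run across genes that share the same 2 arrays and are descriptions only. Over the 6648 genes above the floor on both arrays r was 0.09. Of the photosynthesis genes, 22 had a mean scaled intensity of 5000 or more, with a median ratio of 0.57, and 18 other plastid genes did, with 0.80. Under 5000 were 11 photosynthesis genes with a median of 1.11 and 18 other plastid genes with 1.59. The photosynthesis genes had the lower median in both ranges. The split at 5000 was added after seeing the data, and intensities were not matched within a range. The part of intensity in the difference was not tested.

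**Figure D3:**
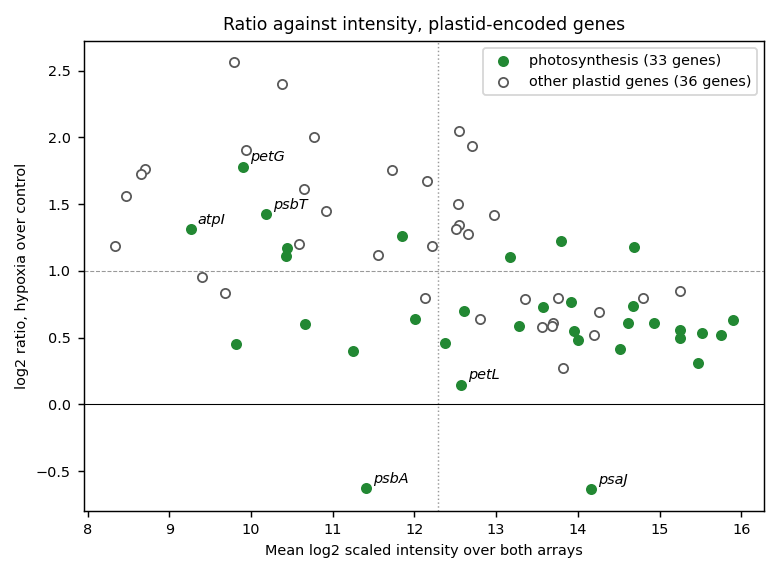
Log2 ratio of hypoxia over control against the mean log2 scaled intensity of both arrays, for the 33 photosynthesis genes (filled) and the 36 other plastid genes (open), with a dashed line at 2-fold and a dotted line at an intensity of 5000. Dimmer probe sets tended to have higher ratios, with a Spearman rho of -0.31 for the photosynthesis genes and -0.61 for the others. psbA and psaJ lie apart at -0.63 and -0.64.

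Nuclear photosynthesis genes, listed by complex together with electron carriers, Rubisco activase and antennae, were also mostly higher. Of 64 listed, 12 had a single-gene probe set and all 12 were measured, so most of the listed genes were not analysed here. Past 2-fold were 5 of the 12, all in the higher direction, and 11 had ratios above 0, with a median of 0.97 against 0.61 for the plastid genes. In photosystem I, PSAN on the lumen side had 9459 in hypoxia and 3660 in control, a ratio of 1.42, and PSAE1 (PSAE-1 in RefSeq), on the stromal side, had 24578 in hypoxia and 11271 in control, a ratio of 1.17. Both lay above the highest plastid-encoded gene of that complex, psaC at 0.64. In photosystem II, the assembly factor gene PSB27 and the small subunit genes PSBW and PSBY had ratios of 1.42, 1.03 and 0.97, inside the range of the plastid-encoded genes. PETM, a small subunit gene of the cytochrome b6f complex, had 27006 in hypoxia and 14105 in control, a ratio of 0.98.

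For the ATP synthase, the gamma subunit gene ATPC1 had 16640 in hypoxia and 9246 in control, a ratio of 0.89, and its dim paralogue ATPC2 had 187.9 in hypoxia and 267.7 in control, a ratio of -0.46. For Rubisco, the activase gene RCA had a ratio of 0.75, below rbcL at 1.17. The antenna genes LHCB4.2, LHCB4.1 and LHCB4.3 had 1.04, 0.88 and 0.40. Of the nuclear factors that read plastid genes or act on their RNAs, few could be followed. The polymerase list had 1 of 8 genes measured, RPOTmp, a phage-type polymerase of mitochondria and plastids, with 274.0 in hypoxia and 1016 in control, a ratio of -1.84. The RNA stability list had 1 of 13 measured, CRP1, a pentatricopeptide repeat protein gene whose maize counterpart acts on petA and psaC RNAs, with 1173 in hypoxia and 803 in control, a ratio of 0.59. The 13 listed polymerase-associated proteins had 0 single-gene probe sets and were not analysed here.

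**Figure D4:**
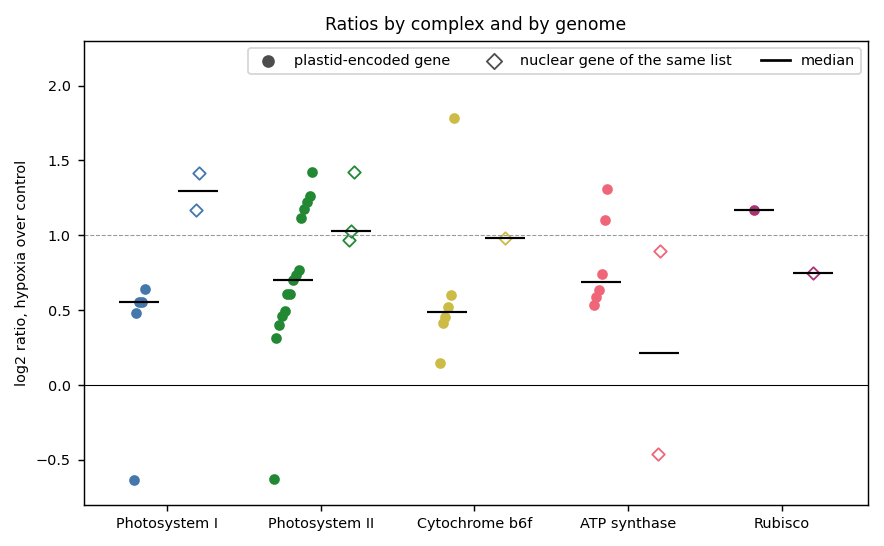
Log2 ratio of hypoxia over control for plastid-encoded genes (filled circles) and measured nuclear genes of the same lists (open diamonds), by complex, with bars at the medians and a dashed line at 2-fold. Both photosystem I nuclear genes, at 1.17 and 1.42, lie above all 5 plastid-encoded ones. The nuclear gene shown for Rubisco is RCA, for the activase and not a subunit, and the antenna genes are not shown.

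The direction of the modest ratios depends on the scaling between arrays. Centring the arrays on the hybridisation controls shifted all ratios by -0.50. The photosynthesis median was then 0.11, against -0.57 for all measured genes, and 23 of 33 ratios were above 0. The share of all measured genes above 0 was not computed under this centring, so that count has no background. petG alone was at least 2-fold higher, against 6.07% of measured genes. psaJ and psbA were at least 2-fold lower, against 31.5%. With centring on reference genes, which shifted all ratios by 0.41, the photosynthesis median was 1.02. Then 18 genes were at least 2-fold higher, against 22.4% of measured genes. Under the main scaling the photosynthesis median lay 0.67 above the median of all measured genes, a difference that a centring cannot change, since it adds the same constant to every gene. Position within each array, which no constant scaling changes, was higher in hypoxia for 30 of 33 genes. It was lower for psaJ, psbA and psbM, and psbM was among the brightest 1% of probe sets on both arrays. The share of all measured genes with a higher position in hypoxia was not computed, so the count of 30 has no background beside it. The median member stood at percentile 97.0 in hypoxia and 95.1 in control. psbA stood at percentile 79.6 in hypoxia and 85.4 in control, and petG at 76.4 in hypoxia and 55.4 in control.

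**Figure D5:**
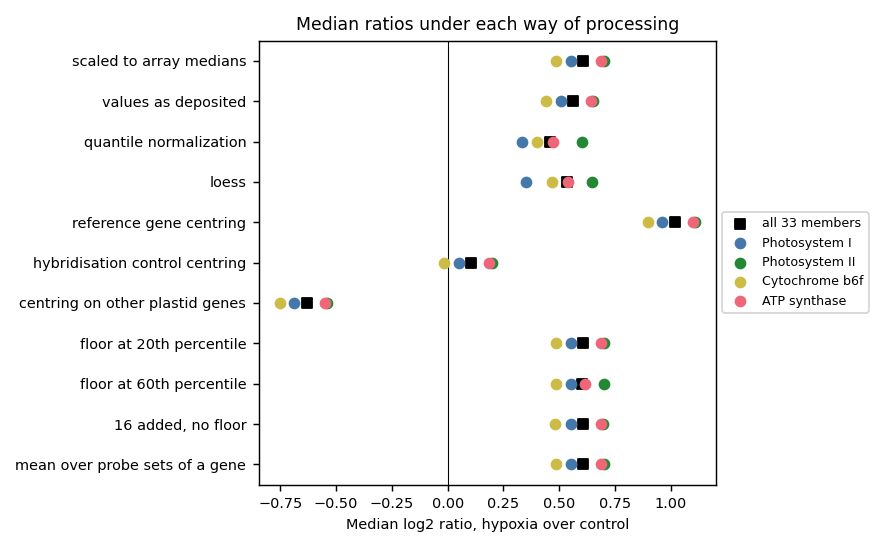
Median log2 ratio of hypoxia over control for all 33 genes (squares) and for each complex with several plastid genes (circles), under the main scaling to array medians and 10 alternatives. Medians stay between 0.34 and 0.70 apart from the 3 centrings, of which the one on other plastid genes puts every median below 0.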

How the data were processed

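Transcripts were measured on 1 hypoxia and 1 control array. The authors deposited linear probe set intensities. The software was GCOS 1.0 per the submitters' processing notes, while settings and genome build are not given in the sources used here. Each array had been scaled as a whole by the authors, as the values show: without the lowest and highest 2% of probe sets, both means were 1500.1. Per the labels' protocols, RNA was labelled by T7 transcription following standard Affymetrix practice, which usually primes from poly(A) tails. Most plastid mRNAs carry no stable tail, and how priming affects these values was not tested.

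After 64 control probe sets were left out, 22746 remained, of which 13513 were paired with 1 gene by an older platform annotation, 503 with several and 8730 with none listed. Symbols were updated through Entrez identifiers in a RefSeq table of TAIR10.1, which matched 13436. For genes with several probe sets, the brightest by mean log2 intensity was taken. Each array was divided by its median and brought to the geometric mean of the 2 medians. No coordinates are printed, since the build behind the array was not given, and ADH1 and PDC1 are not reported here.

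Genes under the floor on both arrays were not counted as measured. With 1 array per group, no test was run. The genes, lists and the naming rule (all members, their neighbours in a transcription unit, and up to 4 genes of each nuclear list, or all in lists of 10 or fewer) were chosen with earlier results of these data known. Transcription unit boundaries were set after the probe sets had been seen, and the split at an intensity of 5000 was added after seeing the data. Alternatives changed the scaling, the floor and the probe set rule. The ratio step was tested on simulated data. Python 3.11.15, numpy 2.4.6, pandas 2.3.3 and statsmodels 0.14.6 were used.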

Additional observations from a re-analysis of the deposited data

How the results depend on the processing

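The photosynthesis median stayed between 0.46 and 0.61 under the 7 alternatives without a centring step, and it lay 0.47 to 0.75 above the median of all measured genes and 0.55 to 0.78 below that of the other plastid genes under all 10 alternatives, where the 3 centrings cannot change either difference. Of the 9 genes at least 2-fold higher, 6 (psbC, psbI, psbN, psbT, petG and rbcL) remained so under the 8 alternatives other than centring on hybridisation controls or on other plastid genes. Quantile normalization turned psbM to -0.15, left 30 ratios above 0 and put psbF, petB and atpE at 0.082, 0.083 and 0.070. psbK and atpF came within 2-fold with quantile normalization, psbK with loess and atpI with the floor at the 60th percentile.

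With reference gene centring, the median was 1.02, with 0.96 for photosystem I, 1.11 for photosystem II, 0.90 for cytochrome b6f and 1.097 for the ATP synthase. Then 18 members were at least 2-fold higher, against 22.4% of measured genes higher and 6.37% lower by as much. With hybridisation control centring, the medians were 0.11 for all 33 genes, 0.0505 for photosystem I, 0.20 for photosystem II, -0.015 for cytochrome b6f and 0.19 for the ATP synthase. There, 1 member was at least 2-fold higher and 2 lower, against 6.07% and 31.5% of measured genes. With centring on the other plastid genes, which by construction removes the shift the plastid genes share, the medians were -0.63 for all 33 genes and -0.69, -0.54, -0.75 and -0.55 for the same complexes. Then 0 members were at least 2-fold higher, 3 lower and 4 above 0, against 2.03% of measured genes higher and 64.6% lower. The median of all measured genes was then -1.30. The share of measured genes above 0 was computed for the main scaling only. Under centring on the other plastid genes, psbI was at -0.015, psbK at -0.062, psbN at -0.13, atpF at -0.14 and rbcL at -0.067. A floor at the 20th percentile put 20.2% of measured genes at 2-fold higher or more.

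No paired analysis was possible because each group has 1 array. Leaving out a replicate was not possible either. All alternatives reuse the same 2 arrays and add no support.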
